A study of Mus musculus with 4 samples.

Results

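Cystatins are small protein inhibitors of papain-like cysteine proteases, the class that holds most lysosomal cathepsins. The 6 cystatin genes described here are Cst3, Cst8, Cst9, Cst12, Cst13 and Cstb, chosen by gene name, and each was found in the deposited table of 44509 named genes and passed the filter on low values (at least 1 FPKM in 2 or more libraries, met by 19837 genes). FPKM counts fragments relative to gene length in kilobases and to each M (1e+06) of mapped fragments, so levels can be compared between genes. The RNA came from mouse testis tissue. All mice carried a busulfan model of oligozoospermia (a low sperm number, here caused by busulfan, an alkylating agent toxic to dividing germ cells). The 2 busulfan libraries came from that model alone and the 2 Cus-1 libraries from the model treated with Cus-1, which the series title calls a resin glycoside and a cuscutae extract. There was no untreated group among them, and the labels give no strain, age, dose or time. They do not say whether the 2 libraries of a group came from separate animals, so p-values measure the spread between these libraries, which may be technical. Group membership rests on the source label, since the sample titles begin with BPA and CUS2, which that label does not contain.

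Cystatins fall into types. Stefin B, the product of Cstb, lacks a signal peptide and works inside cells, whereas the type 2 cystatins, with Cst3 as the common form, are secreted. Several type 2 genes are used mainly by the reproductive tract. Cst9 encodes testatin, known from the Sertoli cell lineage of the mouse testis, the cells that nurse germ cells within the tubules. Cst12 is treated here with Cst9 as a Sertoli cystatin. Cst13 encodes cystatin T of spermatids, and Cst8 encodes CRES, known from spermatids and the epididymis. CRES lacks part of the sequence through which other cystatins bind papain-like proteases.

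Of the 6 genes, 5 lie side by side on chromosome 2, in a run of 9 annotated protein-coding genes that are all cystatin genes or cystatin relatives and span 125.3 kb (148750358 to 148875692, GENCODE M21 on GRCm38, the build also called mm10). Cst12 lies at 148789361 to 148793546, Cst8 at 148798785 to 148805595, Cst13 at 148820081 to 148830410, Cst9 at 148835147 to 148838738 and Cst3 at 148871722 to 148875692. The first 4 are on the plus strand and Cst3 is on the minus strand. Cstb lies apart on chromosome 10, at 78425669 to 78427622 on the plus strand. None of the 6 genes overlaps another annotated gene on either strand, and 0 of the 50-base runs in their transcripts occur in an annotated transcript of another gene, so sharing of fragments with annotated copies was not seen at that length.

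RefSeq promoter windows (GRCm38.p6, 250 bases before to 50 after a transcript start) were held for 5 of the 6 genes, all but Cstb. They are shown because genes a few kilobases apart differed in opposite directions between the groups, but whether the windows bear on that was not tested. The stretches below run from 120 bases before the start to 10 bases from it, 5′ to 3′. That start is a RefSeq one and can differ from the GENCODE gene start. By the GENCODE coordinates above, the whole Cst3 stretch and the NR5A1 motif of Cst8 lie inside the annotated gene, not upstream of it. In the first 2 the capitals mark the longest run shared by any pair among 8 windows of the cluster, in the next 2 the second longest, in Cst8 the NR5A1 motif CAAGGTCA, and in Cst3 the GC box GGGCGG. Cstdc1 and Cstl1 are neighbours in the cluster that are not among the 6 genes.
Cst12 (chr2:148789245-148789374, plus strand): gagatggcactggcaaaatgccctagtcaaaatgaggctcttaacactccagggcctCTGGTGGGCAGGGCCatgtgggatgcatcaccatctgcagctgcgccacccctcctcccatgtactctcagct
Cstdc1 (chr2:148781889-148782018, plus strand): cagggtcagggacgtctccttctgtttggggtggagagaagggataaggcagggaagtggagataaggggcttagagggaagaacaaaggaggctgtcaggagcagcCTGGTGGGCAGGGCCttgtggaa
Cst13 (chr2:148819979-148820108, plus strand): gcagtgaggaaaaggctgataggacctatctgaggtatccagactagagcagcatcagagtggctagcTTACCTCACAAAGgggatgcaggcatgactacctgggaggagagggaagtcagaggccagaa
Cstl1 (chr2:148750241-148750370, plus strand): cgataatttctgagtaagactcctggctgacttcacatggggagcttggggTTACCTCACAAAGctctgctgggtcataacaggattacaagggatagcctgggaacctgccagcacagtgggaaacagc
Cst8 (chr2:148798719-148798848, plus strand): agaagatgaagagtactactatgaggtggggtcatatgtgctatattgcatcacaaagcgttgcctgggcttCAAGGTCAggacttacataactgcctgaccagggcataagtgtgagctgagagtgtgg
Cst9 (chr2:148835027-148835156, plus strand): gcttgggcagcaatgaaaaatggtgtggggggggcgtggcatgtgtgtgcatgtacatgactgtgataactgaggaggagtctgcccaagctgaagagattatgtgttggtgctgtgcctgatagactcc
Cst3 (chr2:148875503-148875632, minus strand): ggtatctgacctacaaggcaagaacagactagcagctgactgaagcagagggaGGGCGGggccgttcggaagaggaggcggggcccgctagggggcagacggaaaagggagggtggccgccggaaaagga
The run CTGGTGGGCAGGGCC, of 15 bases, was shared by Cst12 and Cstdc1 and was held by 3 of 32851 mouse windows of the same length, these included. The run TTACCTCACAAAG, of 13 bases, was shared by Cst13 and Cstl1 and was held by 4 of them. The other 26 pairs of windows shared at most 12 bases in a row. Cst12 and Cst9 shared at most 8. This search was added after the values had been seen, and a link between shared runs and levels was not tested. The NR5A1 motif, the site of an orphan nuclear receptor of gonadal somatic cells, lay at positions -48 to -41 of Cst8 and in 1.56% of all windows. The GC box lay in 35.7% of all windows and, of the 5, only in that of Cst3, at positions -67 to -62 and 25 to 30 from the start. The Cst3 window also held 13 CpG dinucleotides, against 0 to 3 in the other 4 and a median of 7 over all windows. TATAAA (13.6% of windows) matched in Cst13 alone of the 5, at positions -208 to -203 on the reverse strand. TGACGTCA (1.79%), TGACG, which lies within it (20.8%), AGATAA (11.2%), AACAAT (10.7%) and CCAAT (37.4%) matched in none of the 5. Both strands were searched. These are matches of letters only.

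The libraries had summed FPKM values of 726041 to 742689. Depth was estimated from low values of genes with a single transcript. Within a preset range, the commonest product of FPKM and transcript length was taken as 1 fragment. That put the depth at 12.8 to 14.0 M fragments. Such a range always returns a value and bounds it, and whether low values moved in steps was not tested. At that depth even the lowest member value, that of Cst13 in busulfan 2, rested on an estimated 97 fragments, and Cst3 on 7620 to 18479, for the longest annotated transcript. The tissue held germ cell and Sertoli cell transcripts in every library, and the epididymal genes Crisp1 and Gpx5 were at 0 to 0.27 and 0 to 0.04 FPKM. The gene lists used here and below were chosen with earlier results of these data known, so counts from them are no independent comparison. Of 16 epididymal genes listed, 9 had a value and 3 passed the filter, led by Wfdc10 at 252 to 458 FPKM. The part of epididymal genes in the level of Cst8 was not tested. No gene of the 19837 passed the adjusted threshold of 0.05 in limma, a linear model with a spread pooled across genes, so the background rate of calls was 0%. At an unadjusted limma p under 0.05, 18.0% of all tested genes were higher and 9.96% lower with Cus-1, and in 36.6% both treated libraries exceeded both busulfan libraries, in 31.7% both lay below them. With Cus-1 2 left out limma called 2289 genes, and with Cus-1 1 left out 45, so the count of calls turned on which treated library was used.

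The cystatins did not differ in 1 direction. For Cst3, Cst12 and Cst9 both treated libraries lay below both busulfan libraries, by 1.87 to 2.07 times in mean FPKM, and Cst13 was 2.99 times higher. Cst8 and Cstb overlapped between the groups. Without overlap 3 of 6 genes were lower and 1 of 6 higher, beside 31.7% and 36.6% of all tested genes. The same 4 were at an unadjusted limma p under 0.05, beside 9.96% of all tested genes lower and 18.0% higher. The threshold adjusted over all genes was passed by 0 of 6 and by 0% of all tested genes. The median log2 fold change of the 6 genes was -0.65, beside 0.04 for all tested genes. All log2 fold changes are Cus-1 minus busulfan on log2(FPKM + 1), a scale that understates changes of low values. In bulk tissue, fewer cells of a type and less RNA per cell cannot be told apart.

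The order of levels was the same in all 4 libraries, from Cst3 through Cst12, Cst9, Cstb and Cst8 down to Cst13. With busulfan the values of neighbours in this order did not overlap. With Cus-1 those of Cst3 and Cst12 did, as Cst12 reached 639 FPKM in Cus-1 2 and Cst3 was at 632 in Cus-1 1. Cst3 was the 30th and 27th most abundant named gene in busulfan 1 and 2 and the 95th and 69th in Cus-1 1 and 2. Cst13 ranked 8703 and 9594 with busulfan and 3492 and 6073 with Cus-1. Summed over the 6 genes, cystatin FPKM made up 0.449% and 0.486% of the busulfan libraries and 0.252% and 0.258% of the Cus-1 libraries. Cst3, Cst12 and Cst9 together supplied most of that sum in each library, Cst3 alone 34.5% to 44.1% of it.

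**Figure D1:**
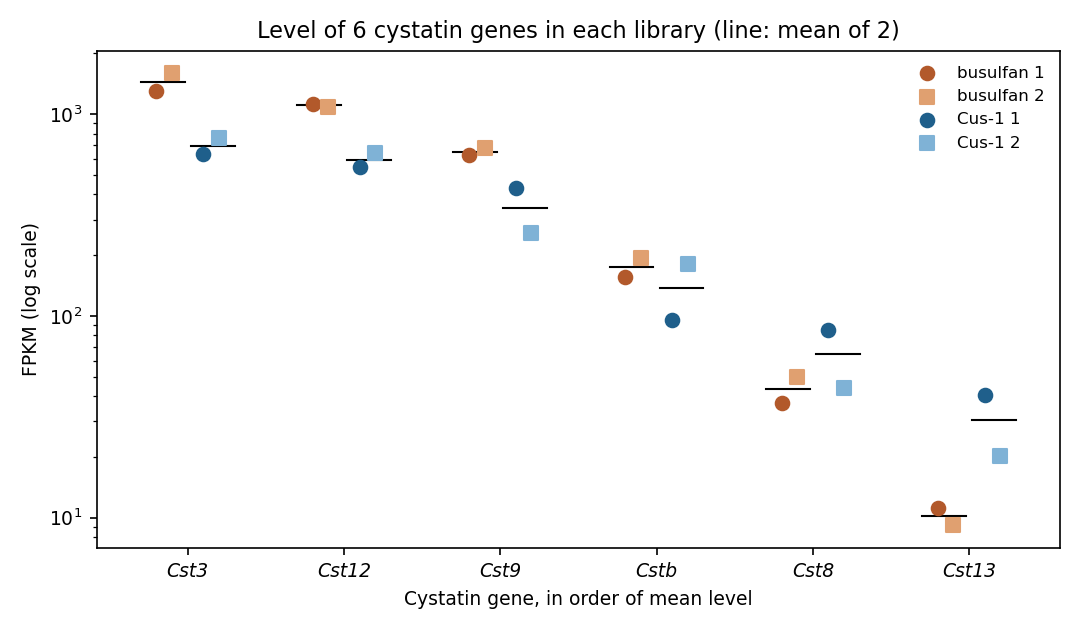
FPKM of the 6 cystatin genes on a log axis, in order of mean level, with 1 point per library and a line at the mean of the 2 libraries of a group. Cst3, Cst12 and Cst9 sit lower in both Cus-1 libraries, Cst13 sits higher, and the groups overlap for Cst8 and Cstb.

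Cst12, the more abundant of the Sertoli cystatins, was at 1129 and 1089 FPKM in busulfan 1 and 2 and at 549 and 639 in Cus-1 1 and 2. Both treated libraries lay below both others, and the replicates of a group were close together. The means were 1109 ± 28.0 and 594 ± 63.7 FPKM (SD, n = 2), with a log2 fold change of -0.90 (SE 0.19, 95% interval -1.39 to -0.41, limma unadjusted p = 0.00511, adjusted p = 0.152). Leaving out 1 library moved this change to between -1.01 and -0.79. The tested genes nearest to it in profile over the 4 libraries were Gata6os and Adgra3, at Euclidean distances of 0.07 and 0.09 on the centred log2 scale, among 8647 genes with a mean of 10 FPKM or more.

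Cst9, which encodes testatin, measured 628 and 677 FPKM in the busulfan libraries and 429 and 257 in the treated ones. The groups did not overlap, but the Cus-1 libraries were far apart and in the reverse order of those for Cst12. The means were 652 ± 34.8 and 343 ± 122 FPKM (SD, n = 2), and the log2 fold change was -0.97 (SE 0.28, 95% interval -1.70 to -0.24, limma unadjusted p = 0.0191, adjusted p = 0.152). With Cus-1 2 left out it was -0.60, and with Cus-1 1 left out -1.34. Its nearest profiles, Fchsd1 and Smad4, were at distances of 0.31 and 0.36, farther than for any of the other 5 genes.

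Most markers of Sertoli cells were lower in both treated libraries, as both genes were. Of 24 Sertoli markers, none of them a cystatin, 24 had a negative log2 fold change and 22 had both treated libraries below both others, beside 31.7% of all tested genes, and no marker was listed at 0. Their summed level was 6516 and 4765 FPKM in the busulfan libraries and 3190 and 3855 in the treated ones. Within each group the libraries were in the same order for this sum and Cst12, and in the reverse order for Cst9. The most abundant, Clu, encodes the secreted chaperone clusterin. It was at 3873, 2613, 1783 and 2235 FPKM in busulfan 1 and 2 and Cus-1 1 and 2. Clu alone thus supplied most of the summed level in each library. The list's log2 fold changes ran from -0.96 to -0.17 with a median of -0.67, so that of Cst9 lay below all 24 and that of Cst12 below 22 of them. With each library centred on these markers, the log2 fold changes were -0.34 for Cst9 and -0.27 for Cst12 (limma adjusted p = 0.524 and 0.470), while that of all tested genes had a median of 0.67. The part of Sertoli cell content in the lower levels was not tested.

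Inside a library Cst12 exceeded Cst9 by 1.80 and 1.61 times with busulfan and by 1.28 and 2.49 times with Cus-1. The log2 difference between the pair was 0.77 ± 0.11 (SD, n = 2) with busulfan and 0.83 ± 0.68 in the treated libraries. The groups overlapped (exact two-sided permutation p = 1), and the shift between groups, 0.07, turned to -0.41 without Cus-1 2 and to -0.01 without busulfan 2.

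Cst13, the spermatid cystatin, measured 11.2 and 9.17 FPKM in the busulfan libraries and 40.7 and 20.2 in the treated ones. Both treated libraries were above both others, and Cus-1 1 was well above Cus-1 2. The means were 10.2 ± 1.44 and 30.4 ± 14.5 FPKM (SD, n = 2), with a log2 fold change of 1.42 (SE 0.36, 95% interval 0.50 to 2.33, limma unadjusted p = 0.0106, adjusted p = 0.152). With Cus-1 1 left out it was 0.93, and with Cus-1 2 left out 1.90. Of all tested log2 fold changes, 98.6% were smaller. Its nearest profiles were those of Prss52 and Sppl2c, at distances of 0.17 and 0.19.

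Germ cell markers were higher in the same libraries. Of 16 round spermatid markers 15, and of 16 spermatocyte and 16 elongating spermatid markers all, had both treated libraries above both others, beside 36.6% of all tested genes, and no marker was listed at 0. The summed round spermatid level was 576 and 811 FPKM in the busulfan libraries and 1661 and 1145 in the treated ones, and the summed elongating spermatid level 3958 and 4285 against 14320 and 5785. Cus-1 1 stood highest for both sums and for Cst13, whereas busulfan 1 was lowest for both sums and busulfan 2 for Cst13. The median log2 fold changes were 0.94, 1.07 and 1.17 for spermatocyte, round and elongating spermatid markers, and that of Cst13 exceeded all 48 of them. With each library centred on the round spermatid markers, Cst13 was at 0.34 (limma adjusted p = 0.700) and all tested genes at a median of -1.03. The part of germ cell content in the level of Cst13 was not tested.

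Cst8, which encodes CRES, measured 37.2 and 49.8 FPKM in the busulfan libraries and 85.5 and 43.7 in the treated ones. Cus-1 1 was above the other libraries, while Cus-1 2 lay between the busulfan values. The log2 fold change was 0.50 (SE 0.36, 95% interval -0.42 to 1.41, limma adjusted p = 0.365), below that of each of the 48 spermatocyte and spermatid markers. It was 0.02 without Cus-1 1, 0.29 without busulfan 1 and 0.97 without Cus-1 2. It turned to -0.58 when libraries were centred on the round spermatid markers. Its nearest profile, at a distance of 0.07, was that of Fam178b, at 44.9, 61.5, 111 and 54.3 FPKM in the same order of libraries, followed by Cdkl4 at 0.14.

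**Figure D2:**
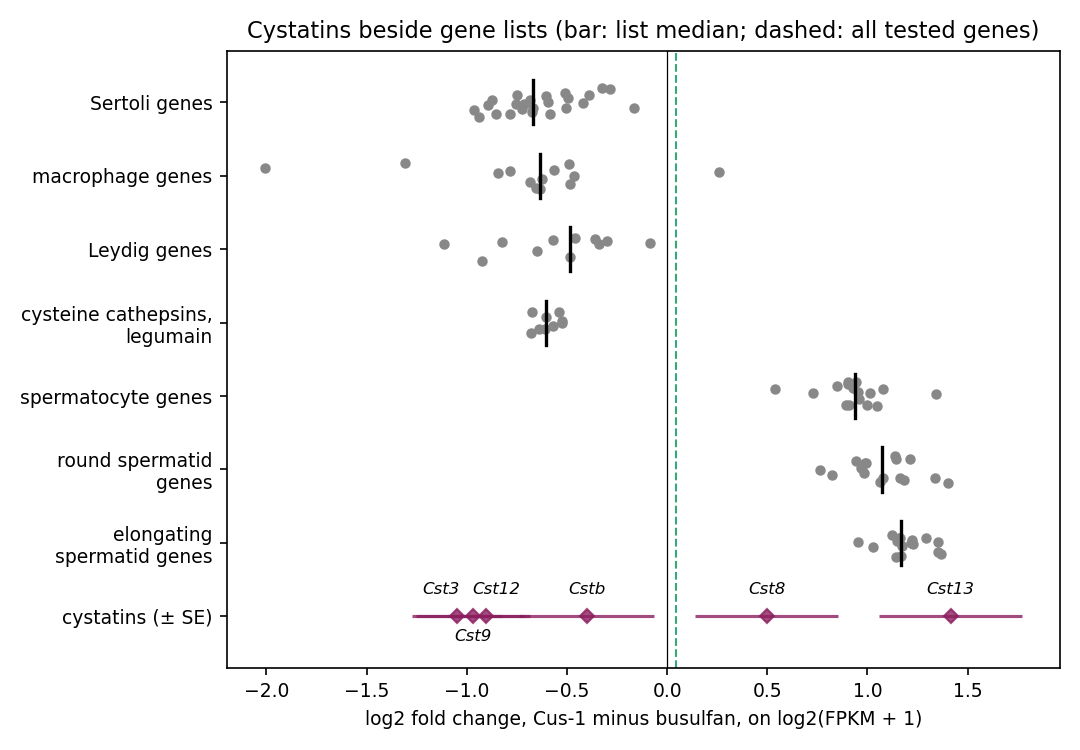
log2 fold change of every tested gene of 7 lists (grey points, bar at the median) and of the 6 cystatins (diamonds ± SE), with a dashed line at the median of all tested genes. Cst3, Cst9 and Cst12 lie at the low end of the Sertoli points, Cst13 beyond the spermatid points and Cst8 below them.

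Cst3 encodes cystatin C, the secreted inhibitor that most cell types make. Its level was 1303 and 1592 FPKM in the busulfan libraries and 632 and 765 FPKM in the treated libraries. Both treated libraries lay below both others by a wide margin. The means were 1447 ± 205 and 698 ± 94.3 FPKM (SD, n = 2), and the log2 fold change was -1.05 (SE 0.22, 95% interval -1.62 to -0.47, limma unadjusted p = 0.00542, adjusted p = 0.152). It ran from -1.19 to -0.91 as 1 library was left out, and 1.34% of all tested changes were lower. It lay below all 24 Sertoli markers and below 11 of 13 macrophage markers. The macrophage markers, of which 10 had both treated libraries below both others (beside 31.7% of all tested genes) and none was listed at 0, summed to 2762 and 2248 FPKM in the busulfan libraries and to 1474 and 1966 in the treated ones, and their part in the level of Cst3 was not tested. Centred on the Sertoli markers, Cst3 was at -0.42 (limma adjusted p = 0.357). Its nearest profiles were those of Aass and Samd9l, at distances of 0.10 and 0.15, and among the other 5 cystatins that of Cst12, at 0.28.

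Cstb encodes stefin B, an inhibitor in the cytosol and nucleus whose human counterpart is mutated in a progressive myoclonus epilepsy. Its level was 155 and 194 FPKM in the busulfan libraries and 95.0 and 180 FPKM in the treated libraries. Cus-1 1 was lowest, and Cus-1 2 lay between the busulfan values. The log2 fold change was -0.40 (SE 0.34, 95% interval -1.27 to 0.47, limma adjusted p = 0.431). Dropping Cus-1 2 moved this change to -0.86, dropping Cus-1 1 to 0.06 and dropping busulfan 2 to -0.24. Centring on the Sertoli markers gave 0.23. Its nearest profiles were those of Sult1e1 and Zmat5, at distances of 0.10 each.

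The same contrasts were made inside libraries, where a scaling of the whole library drops out of the FPKM ratios. The shifts are on log2(FPKM + 1), where the added 1 keeps such a scaling from cancelling in full. Cst9 exceeded Cst13 by 56.0 and 73.8 times in busulfan 1 and 2 and by 10.6 and 12.7 times in Cus-1 1 and 2. The Cus-1 values lay closely together, and the log2 difference shifted by 2.39 toward Cst13. Cst12 exceeded Cst13 by 101 and 119 times with busulfan and by 13.5 and 31.7 times with Cus-1, a shift of 2.32. Cst3 exceeded Cst13 by 116 and 174 times against 15.5 and 37.9 times, a shift of 2.46. Cst3 exceeded Cstb, the other widely expressed member, by 8.40 and 8.23 times against 6.65 and 4.24 times, a shift of -0.65. In each of these 4 pairs the groups did not overlap. The exact two-sided permutation p was 0.333, the smallest that 2 against 2 libraries allow (0.417 adjusted over the 5 pairs). For the pairs with Cst13 both outcomes follow from the single genes, since Cst13 was higher and its partners lower without overlap. Those pairs are therefore no further evidence. With Cus-1 2 left out the shift between Cst3 and Cstb was -0.33, and with Cus-1 1 left out -0.97. For Cst12 against Cst13 it was 2.92 and 1.72, and for Cst3 against Cst13 3.09 and 1.84, in the same order.

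**Figure D3:**
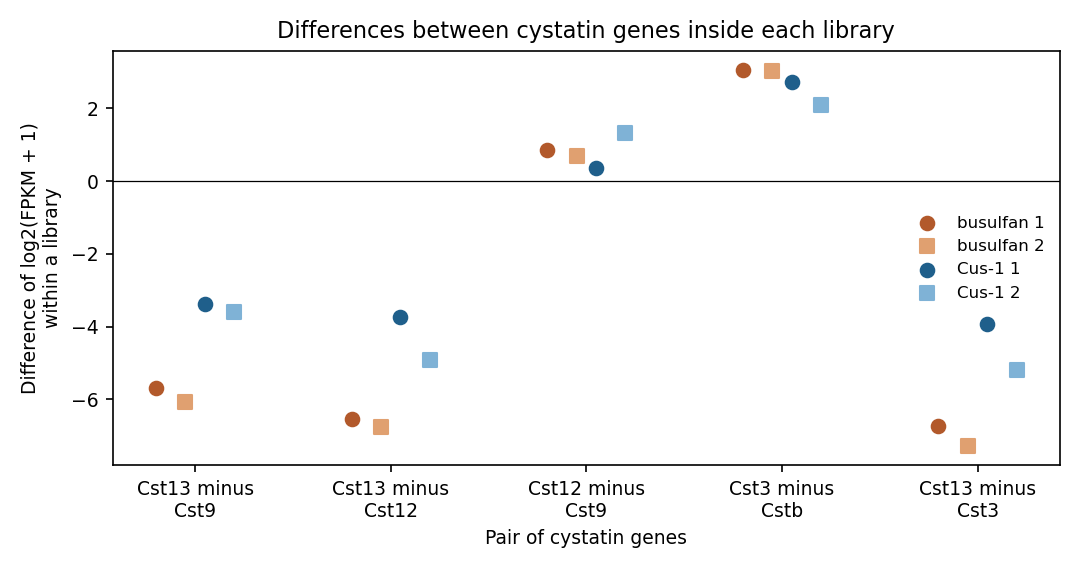
Difference of log2(FPKM + 1) between the members of 5 cystatin pairs, 1 point per library. The 3 pairs with Cst13 are higher in both Cus-1 libraries, Cst3 minus Cstb is lower in both, and Cst12 minus Cst9 overlaps.

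Along the chromosome 2 cluster, genes that were higher and lower with Cus-1 were interspersed. Of its 9 genes, treated libraries both exceeded the busulfan libraries in 2, both lay below them in 4 and overlapped with them in 3, beside 36.6% and 31.7% of all tested genes. Cst13 ends 4.7 kb before Cst9 begins, and their log2 fold changes were 1.42 and -0.97. Cst12 and Cstdc1, whose windows share the 15-base run shown above, are 3.4 kb apart and both were lower, Cstdc1 from 68.9 and 74.1 FPKM with busulfan to 37.8 and 51.2 in the treated libraries (-0.69 on the log2 scale, SE 0.19, limma adjusted p = 0.152). Cstl1, at the far end of the cluster, was at 7.91 and 4.50 FPKM against 37.6 and 17.6 (1.94, SE 0.43, limma adjusted p = 0.152). As with Cst13, Cus-1 1 was the highest library. Cst11, at 1.90 and 4.44 against 2.86 and 0.39 FPKM, and Cstdc2, at 33.4 and 108 against 30.0 and 33.7 FPKM, overlapped between the groups. Cstdc2, outside the lists, was added after its values had been seen.

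**Figure D4:**
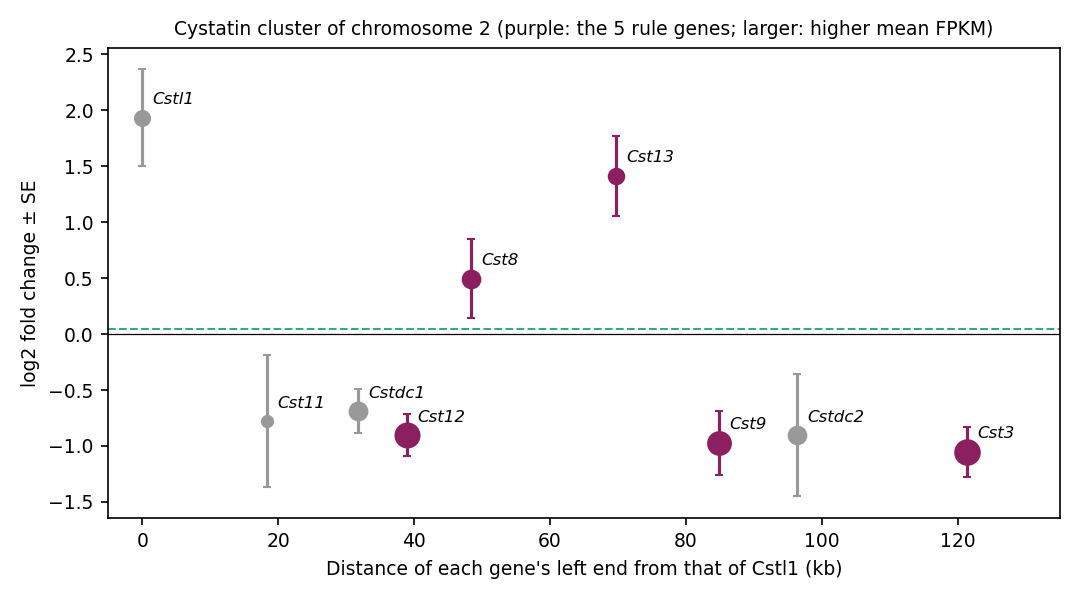
log2 fold change ± SE of the 9 genes of the chromosome 2 cluster against the distance in kb of each gene's left end from that of Cstl1, purple for the 5 genes described here and larger for higher mean FPKM. Cstl1 and Cst13 lie above 1, and Cst12, Cst9 and Cst3 near -1, in mixed order along the cluster.

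Of 21 other cystatin family genes listed, 13 had a value in the table and 5 passed the filter. The median log2 fold change of the 5 was -0.78. Cstl1 and Cstdc1 are given above with Cst11. The plasma proteins of the wider family were low, Fetub at 19.8 and 6.64 FPKM with busulfan against 4.47 and 8.14 with Cus-1, and Ahsg, which encodes fetuin-A, at 1.40 and 3.74 against 0.58 and 1.19. Cst6, an epithelial cystatin that did not pass the filter, was at 1.78 and 0.34 FPKM against 0.04 and 0.07. Of the other leukocyte and epithelial members, Cst7 was at 0 to 0.15, Csta1 at 0 to 0.02 and Stfa1 at 0 to 0.25 FPKM.

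Cysteine proteases were measured in the same libraries. Of 11 genes for cysteine cathepsins and legumain, 9 passed the filter, all 9 had a negative log2 fold change and 7 were lower without overlap between the groups, beside 31.7% of all tested genes. Their median was -0.60 and their range -0.68 to -0.52, beside medians of -0.67 for the Sertoli and -0.64 for the macrophage markers, whose part in these levels was not tested. At an unadjusted limma p under 0.05, 3 of the 9 were lower, beside 9.96% of all tested genes, and 0 passed the adjusted threshold. Ctsl, the most abundant and a lysosomal protease that rat Sertoli cells are known to secrete, measured 1054 and 826 FPKM in the busulfan libraries and 534 and 705 in the treated ones, a log2 fold change of -0.60 with an SE of 0.24 and a limma adjusted p of 0.184. Ctsb was at 350 and 323 against 159 and 279 FPKM, and Lgmn, for the asparaginyl protease legumain, at 149 and 122 against 81.7 and 107. For Ctsh, Ctsf, Ctso and Ctsz the groups were also apart, with log2 fold changes of -0.68, -0.53, -0.64 and -0.61. Ctss and Ctsc, proteases of leukocytes among other cells, overlapped, Ctss at 53.2 and 31.3 against 22.0 and 35.0 FPKM. Cst3, Cst9 and Cst12 had lower log2 fold changes than each of the 9 proteases.

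Over the alternative settings, the direction of Cst3, Cst9, Cst12 and Cst13 stayed the same in each of 13, while Cst8 turned in 1 and Cstb in 2. For Cst3, Cst9, Cst12 and Cst13, whose groups did not overlap, only the scalings could have turned the direction. The filters and limma without trend leave a change as it was. Pseudocounts and leaving out 1 library cannot turn genes without overlap.

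**Figure D5:**
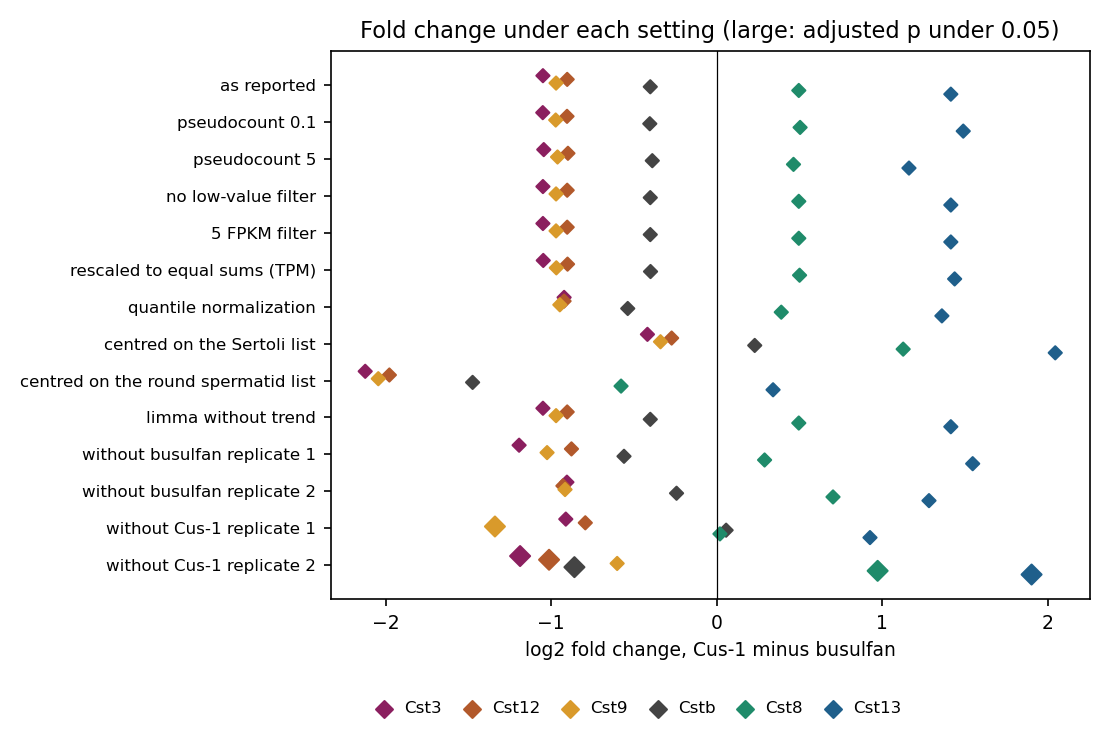
log2 fold change of each cystatin gene as reported and under 13 other settings, with large diamonds where the limma adjusted p was under 0.05. Large diamonds occur only where a Cus-1 library was left out, which leaves a lone library in that group. Cst3, Cst9 and Cst12 stay below 0 and Cst13 above it in each, where only the scalings could have turned them. Cst8 and Cstb cross 0.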

How the data were processed

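Testis RNA was sequenced in 4 libraries, 2 per group, assigned by source label and library name. The authors deposited 1 table of FPKM values per gene, to 2 decimals. The submitters' processing notes name mm10 as the genome build. The sources used here name no aligner, counter, annotation or strand setting. The 910 unnamed rows (0.641% to 0.688% of a library's summed FPKM) and 46 blank rows were left out, and of 115 repeated symbols the row with the highest mean was kept.

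From these values, limma 3.58.1 in R 4.3.3, with a mean-variance trend and Benjamini-Hochberg adjustment over 19837 genes, was run two-sided on log2(FPKM + 1), and tested on simulated data. Within-library differences were tested with exact permutations over samples. Members and lists were chosen with earlier results of these data known. Named genes were the 6 members, tested cystatin relatives and cysteine proteases, and the 2 nearest profiles per member. Added to these were the 3 largest changes among other protease inhibitors and the most abundant markers of cell lists. Of those markers, Clu, Apoe and Wfdc10 are given. Cst6, Cst7, Csta1, Stfa1, Crisp1, Gpx5 and Cstdc2 are outside this rule and were chosen after their values were seen. Alternatives were 2 pseudocounts, 2 filters, 4 scalings, limma without trend and leaving out each library.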

Additional observations from a re-analysis of the deposited data

How the results depend on the processing

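With 2 libraries a group, values rest on few samples and a missed threshold does not show that levels were alike. Of 78 recomputed member changes (6 genes, 13 settings), 3 turned in direction. Many of the 78 could not turn. The 2 filters and limma without trend do not alter a change. Pseudocounts and leaving out 1 library cannot turn a gene whose groups do not overlap. Fits without 1 library leave a lone library in its group, whose spread is not measured. Turned values were -0.58 for Cst8 centred on round spermatid markers, and for Cstb 0.23 centred on Sertoli markers and 0.0570 without Cus-1 1. The cause was not tested. Leaving out each library gave ranges of -1.19 to -0.91 for Cst3, 0.0198 to 0.973 for Cst8, -1.34 to -0.60 for Cst9, -1.01 to -0.79 for Cst12, 0.93 to 1.90 for Cst13 and -0.86 to 0.0570 for Cstb, and of -0.41 to 0.55 for the shift between Cst12 and Cst9. A lone library was assumed to vary like the others. The number of genes called by limma over all genes was 0 as reported, 2 centred on Sertoli markers, 294 on round spermatid markers, and 0 to 2289 as 1 library was left out. At an unadjusted limma p under 0.05, 3576 genes were higher and 1975 lower, against 2831 and 2697 after quantile normalization, 8675 and 71 centred on Sertoli and 30 and 7593 on round spermatid markers, and 1230 to 3895 and 374 to 2399 as 1 library was left out. No paired analysis was possible because the labels give the samples no shared replicate numbers.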

Other observations

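Inhibitors of other protease classes were also measured. Of 16 such genes listed 14 were tested, with a median log2 fold change of -0.42. Without overlap between the groups 2 were higher and 7 lower, beside 36.6% and 31.7% of all tested genes. Spint3, a Kunitz-type inhibitor, measured 11.4 and 7.50 FPKM in the busulfan libraries and 2.71 and 5.64 FPKM in the treated ones (-1.05 on the log2 scale, SE 0.37, limma adjusted p = 0.166). Serping1, which encodes the complement C1 inhibitor, measured 207 and 122 FPKM against 73.6 and 87.4 (-0.98, SE 0.29, adjusted p = 0.152). Spink2, an inhibitor of serine proteases in the acrosome, measured 206 and 290 FPKM against 494 and 427 (0.91, SE 0.23, adjusted p = 0.152).

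Other cell lists gave median log2 fold changes of -0.48 for 11 Leydig, -0.48 for 9 endothelial and -0.31 for 10 peritubular myoid genes, beside 0.21 for 13 tested spermatogonial genes. Of the 3 tested epididymal genes 2 were lower without overlap, beside 31.7% of all tested genes, with a median of -0.60.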
